A study of Mus musculus with 6 samples.

Results

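The transcripts of 10 genes of the p53 and DNA damage checkpoint pathway were followed in mouse 2-cell embryos that had lost their lipid droplets as zygotes. The genes were taken by symbol from a given list (Trp53, Mdm2, Mdm4, Cdkn1a, Gadd45a, Atm, Atr, Chek1, Chek2 and Trp53bp1), and all 10 were found among the 48967 genes with exonic parts in the count files. All embryos were wild type (wt) and of the cross F1 (C57Bl/10 X CBA/H), came from a common pool of zygotes of hormonally stimulated females, and were grown from 0.5 to 2.0 dpc in KSOM without fatty acids. Delipidated zygotes were treated with cytochalasin B and centrifuged until the droplets had gathered outside the cytoplasm, after which the zona pellucida was opened by laser and the droplets were drawn off with a pipette. Control zygotes were cultured only. No control with the drug, the centrifugation and the opened zona but with its lipid is described for the sequenced embryos, so lipid loss and handling cannot be told apart here. Each group had 3 libraries of total RNA, and each library came from a pool of 3 embryos. All pools came from this 1 collection of embryos, so the p-values cover the spread between pools and not between collections.

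The p53 protein is a transcription factor that is kept low by MDM2, a ubiquitin ligase that p53 itself induces, and by the related protein MDM4, which binds and silences it. DNA damage is sensed by the kinases ATM, for double-strand breaks, and ATR, for single-stranded DNA at stalled replication forks. They act through the checkpoint kinases CHK2 and CHK1, which delay the cell cycle and help to release p53 from its inhibitors. The 2-cell stage is when the mouse embryo passes from stored maternal RNA to RNA of its own genome, so its transcripts can be of either origin.

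None of the 10 genes differed between delipidated and control embryos beyond the spread between libraries. With edgeR's quasi-likelihood test and Benjamini-Hochberg adjustment over the 16020 genes tested, 0 of the 10 were called at an adjusted p under 0.05 and a log2 fold change beyond 1, and the share of all genes called was 0% higher and 0% lower. At an unadjusted p under 0.05 there were 0 of the 10, while among all genes 184 had such a p and were higher after delipidation (1.15%) and 279 were lower (1.74%). DESeq2 and limma-voom also gave 0 of the 10 at an unadjusted p under 0.05. The CPM of the groups overlapped for every one of the 10 genes, while among all genes tested all 3 delipidated libraries lay above all controls for 3.81% and below all controls for 5.05%. The log2 fold changes of the 10 genes ran from -0.60 for Cdkn1a to 0.20 for Trp53, and 3 were above and 7 below 0. Their median was -0.13, against 0.00 over all genes tested. A missed threshold does not show that levels were equal, and the 95% intervals below give the differences that the libraries still allow. The values are per unit of library, so fewer cells and less RNA per cell cannot be told apart.

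**Figure D1:**
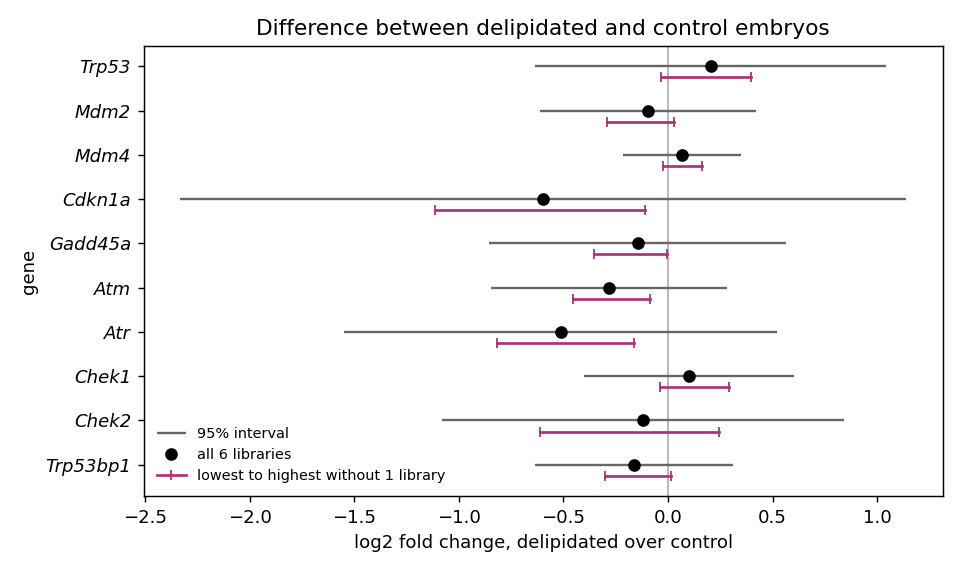
Log2 fold change of delipidated over control embryos (x axis) for each of the 10 genes (y axis). Black points are the edgeR estimates from all 6 libraries, grey lines their 95% intervals, and the lines under them the range when each library was left out in turn. Every 95% interval spans 0, and that of Mdm4 (-0.22 to 0.35) is the narrowest.

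The control libraries held 12164963, 16165958 and 12980787 counts on genes and the delipidated libraries 20059460, 16332103 and 14683741. Genes with at least 1 count numbered 22855, 22437 and 20582 in control libraries and 17091, 19408 and 20158 in delipidated libraries. Delipidated library 1 thus had the most counts and the fewest genes, and its log2 CPM had the lowest median correlation with its own group (0.851, over all genes tested). It also held the highest CPM of Trp53 and Chek2 and the lowest of Cdkn1a and Atr. Its part in the results was measured by leaving it out, and the values without it stand beside those genes.

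Levels between genes were compared as CPM per kb of exonic part. The order over the 6 libraries was Mdm4 (mean 242.3), Chek1 (40.8), Mdm2 (40.7), Chek2 (28.7), Gadd45a (23.7), Trp53bp1 (15.6), Atm (13.6), Trp53 (5.91), Cdkn1a (2.64) and Atr (0.950). Mdm4 came first and Trp53, Cdkn1a and Atr came 8th, 9th and 10th in each of the 6 libraries. Mdm4 was in place 108 among the 16020 genes tested. It also gave between 75.2% and 81.2% of the summed CPM of the 10 genes in a library. That share is not scaled by length and so favours long genes such as Mdm4, whose parts add up to 14798 bp. Trp53bp1 lay above Atm in each of the 6 libraries, although their ranges overlapped. The order of Chek1 and Mdm2 differed between libraries, and Chek2, at 11.6 to 43.4 CPM per kb, overlapped the ranges of Chek1, Mdm2, Gadd45a, Trp53bp1 and Atm. The places of Chek1, Mdm2, Chek2, Gadd45a and Trp53bp1 moved between libraries and are not resolved. Atm came 7th in each of the 6 libraries. When only parts overlapping the coding sequence were counted, a choice made after seeing the data, Mdm4 stayed first at a mean of 1579 CPM per kb, Mdm2 was next at 103, and the lowest means were those of Cdkn1a (3.09) and Atr (2.77). Cdkn1a and not Atr was last in control library 1 and delipidated libraries 1 and 2 on that scale, where the places of Trp53, Mdm2, Gadd45a, Atm, Chek1 and Chek2 also moved. The parts of Atr add up to 23451 bp, of which 7965 bp overlap coding sequence. A read is counted in each part it touches, so levels per kb also depend on how finely the exons of a gene are cut. On the longest part alone the means were 91.6 CPM per kb for Mdm4 and 17.6 for Mdm2.

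**Figure D2:**
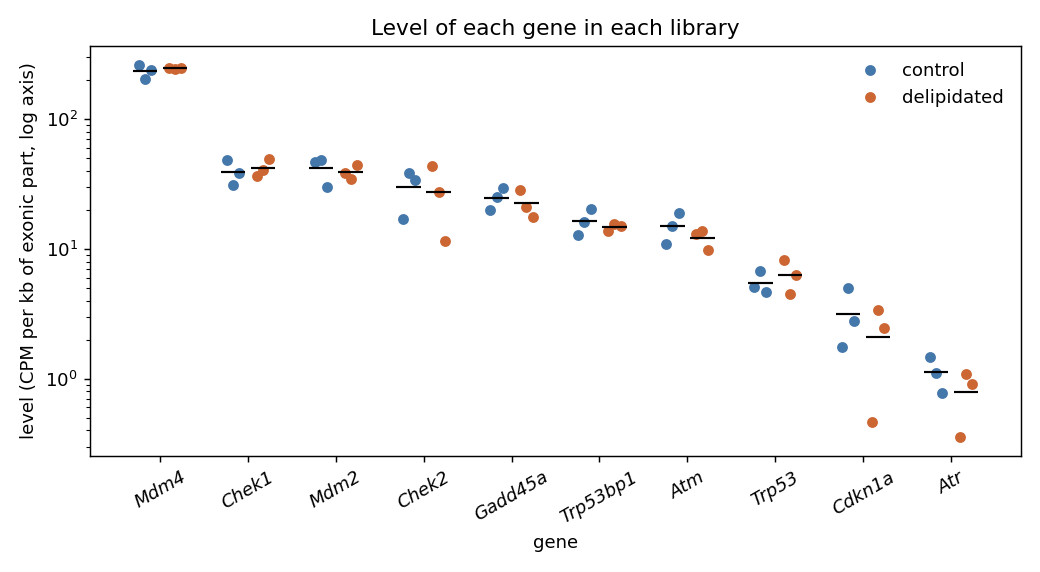
Level of each of the 10 genes in CPM per kb of exonic part (y axis, log scale). Each point is 1 library, 3 control and 3 delipidated, and each bar is the group mean. Mdm4 lies above all other genes in each library (205 to 264), and the points of both groups overlap for every gene.

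Among p53 and its regulators, Trp53 (ENSMUSG00000059552, GRCm38 chr11:69580359-69591873, plus strand) was read at 20.5, 27.3 and 18.9 CPM in control libraries and at 33.3, 18.2 and 25.3 CPM in delipidated libraries. The highest and the lowest value both came from delipidated embryos, and the groups overlapped. The means were 22.2 ± 4.50 CPM in control and 25.6 ± 7.55 CPM in delipidated embryos (SD over 3 libraries, n = 3; permutation p = 0.7, exact and two-sided, where 3 against 3 libraries allow no p below 0.1). The log2 fold change was 0.20 ± 0.38 (SE), with a 95% interval from -0.64 to 1.04 and an edgeR adjusted p of 1.00 after Benjamini-Hochberg adjustment. Without delipidated library 1 it was -0.03, so the direction rested on that library. The counts of Trp53 were spread over 13 to 18 of its 22 exonic parts in each library.

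Mdm2 (ENSMUSG00000020184, chr10:117688875-117710758, minus strand), the ligase that marks p53 for degradation and a p53 target itself, was read at 239.5, 248 and 152 CPM in control libraries and at 197, 174 and 227 CPM in delipidated libraries. All 3 delipidated values lay between the lowest and the highest control. The means were 213 ± 53.2 CPM and 199 ± 26.6 CPM (SD over 3 libraries, n = 3; permutation p = 0.8, exact and two-sided). On the log2 scale the difference was -0.10 ± 0.24 (SE), with a 95% interval from -0.61 to 0.42. It turned to 0.01 without control library 1 and to 0.03 without control library 2. Mdm2 transcripts can start at a first exon or further inside the gene, from where p53 drives its own set of transcripts. The part at the gene's annotated start that ends the first exon, chr10:117710552-117710685, held 20, 110 and 61 counts in control and 68, 83 and 47 in delipidated libraries. The part chr10:117709946-117710022, where transcripts with an inner start also have sequence, held 69, 169 and 66 counts in control and 95, 109 and 132 in delipidated libraries. The groups overlapped at both parts.

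Mdm4 (ENSMUSG00000054387, chr1:132959484-133030561, minus strand), the p53 inhibitor without strong ligase activity of its own, was read at 3910, 3035 and 3564 CPM in control libraries. In delipidated libraries it was read at 3662, 3645 and 3699 CPM. The 3 delipidated values were close together and lay inside the control range. The means were 3503 ± 441 CPM and 3669 ± 27.7 CPM (SD over 3 libraries, n = 3; permutation p = 0.7, exact and two-sided). The coefficient of variation was 12.6% in control and 0.753% in delipidated libraries, a difference in spread that was not tested. The log2 fold change was 0.07 ± 0.13 (SE), and its 95% interval, from -0.22 to 0.35, corresponds to 0.860 to 1.28 times the control level. Without control library 2, which had the lowest level, it was -0.03.

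The annotated first exons of Mdm4 differed in their counts. Of its 14 transcripts in GENCODE M21, 1 begins with an exon of 27 bp at chr1:133030535-133030561, and 8 begin with an exon that holds the part chr1:133025248-133025330. The upstream exon held 1481, 1808 and 1452 counts in control libraries and 2112, 2440 and 1837 in delipidated libraries. The downstream part, although longer at 83 bp, held 45, 68 and 21 counts in control libraries and 51, 109 and 89 in delipidated libraries. The counts at the start of the gene thus lay mostly on the upstream exon in all 6 libraries of both groups. They came to between 87.1% and 90.1% of the counts on the first 26 bp of the exon at chr1:133018859-133018884, further into the gene. The exon between them, chr1:133019354-133019431, held 62 to 143 counts, fewer than the parts on either side of it in the upstream transcript. A read is counted in each part it touches, so these are counts of overlaps and not of transcripts. At the other end, the last 5 parts of Mdm4, which add up to 4223 bp, held between 1 and 62 counts in a library, at most 0.104% of those of the gene. This comparison of parts was chosen after their counts were seen.

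**Figure D3:**
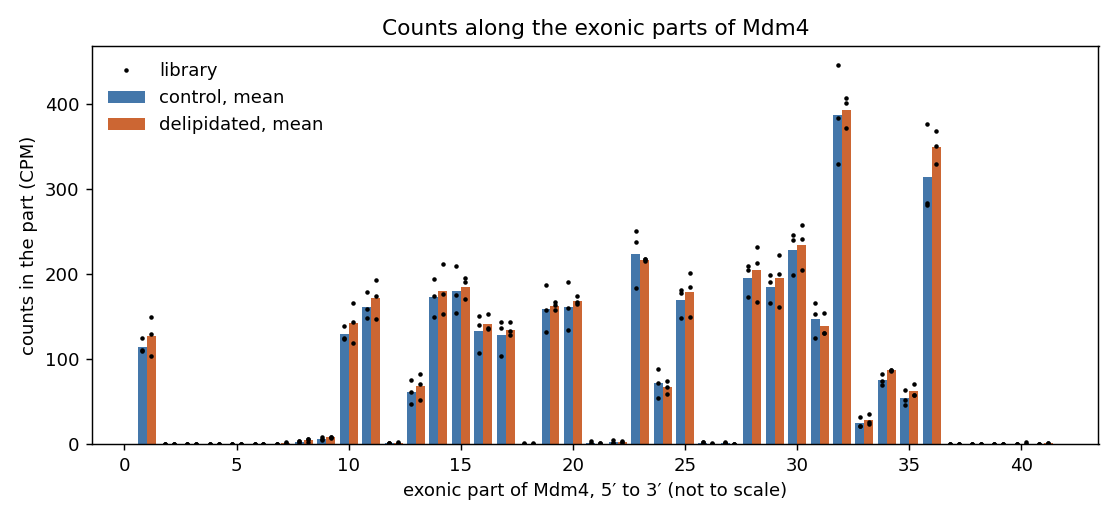
Counts in CPM (y axis) on each of the 41 exonic parts of Mdm4, numbered from the start of the gene and not to scale (x axis). Bars are group means of 3 control and 3 delipidated libraries and points are single libraries. Part 1, the upstream first exon, is high in both groups, while parts 2 to 8, which hold the downstream first exons, part 9 and parts 37 to 41 lie near 0.

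Since the counts differed between these first exons, the 250 bases before each RefSeq start are shown, as given for GRCm38.p6. They lie at chr1:133030588-133030837, which ends 26 bases short of the counted upstream exon because RefSeq places the start further out, and at chr1:133025417-133025666 before the downstream start, both on the minus strand, and overlap 0 exons of GENCODE M21. Capitals mark the dinucleotide CG, which reads the same on both strands.
Mdm4 upstream: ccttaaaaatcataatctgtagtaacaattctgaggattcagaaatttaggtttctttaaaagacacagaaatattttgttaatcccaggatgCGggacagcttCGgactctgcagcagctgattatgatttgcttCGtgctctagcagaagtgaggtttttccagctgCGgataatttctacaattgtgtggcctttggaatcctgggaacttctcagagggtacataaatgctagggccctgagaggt
Mdm4 downstream: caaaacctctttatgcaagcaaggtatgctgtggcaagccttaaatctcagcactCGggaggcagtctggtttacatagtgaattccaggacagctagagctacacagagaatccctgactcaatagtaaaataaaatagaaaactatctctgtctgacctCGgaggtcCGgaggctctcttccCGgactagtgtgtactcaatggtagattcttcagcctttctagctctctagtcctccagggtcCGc
The upstream sequence has 4 CG and a GC content of 41.6%, and the downstream sequence has 5 CG and 47.2%. Among 32851 promoters of the same length the median was 6 CG, with at least 4 in 62.2% and at least 5 in 55.6%. All 10 genes had an entry, and Mdm4 and Cdkn1a had more than 1. The most CG stood before Mdm2, with 29, a number reached by 6.78% of promoters, and the fewest before the upstream of the 2 starts of Cdkn1a, with 2.

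Of the arrest genes that p53 induces, Cdkn1a was in place 8927 and Gadd45a in place 2366 among the 16020 genes tested, by CPM per kb. Cdkn1a (ENSMUSG00000023067, chr17:29090976-29100727, plus strand), which encodes the cyclin-dependent kinase inhibitor p21, was read at 3.88, 11.1 and 6.23 CPM in control libraries and at 1.04, 7.50 and 5.51 CPM in delipidated libraries. These values came from 46, 183 and 82 counts and from 21, 122 and 78 counts. The lowest value was that of delipidated library 1, whose counts all lay on the last of 7 parts, and the other delipidated values lay inside the control range. The means were 7.06 ± 3.66 CPM and 4.68 ± 3.31 CPM (SD over 3 libraries, n = 3; permutation p = 0.5, exact and two-sided). The log2 fold change was -0.60 ± 0.79 (SE), and its 95% interval, from -2.33 to 1.14, was the widest of the 10. Anything from 0.199 to 2.2 times the control level lies inside that interval. The coefficient of variation was 51.9% in control and 70.7% in delipidated libraries, and the highest CPM was 10.7 times the lowest. It was -0.11 without control library 2, -0.12 without delipidated library 1 and -1.11 without delipidated library 2, and it was -1.53 with parts in the coding sequence, -1.07 with limma-voom and -0.02 with the longest part. Its size thus moved with single libraries and with the counting and the test. The first exon at chr17:29090979-29091101 held 0 counts in each control library and 0, 0 and 5 in delipidated libraries, while the exon at chr17:29093772-29093861, where other transcripts begin, held 2, 23 and 4 and then 0, 2 and 1. Of all its counts, 6.02% lay on parts that overlap AC167363.2 on the opposite strand.

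Gadd45a (ENSMUSG00000036390, chr6:67035096-67037457, minus strand), a stress gene whose product binds PCNA and p21, was read at 35.0, 44.5 and 52.1 CPM in control libraries and at 50.4, 37.4 and 31.3 CPM in delipidated libraries. The groups overlapped over nearly their whole range. The means were 43.9 ± 8.58 CPM and 39.7 ± 9.72 CPM (SD over 3 libraries, n = 3; permutation p = 0.7, exact and two-sided). Its log2 fold change was -0.14 ± 0.32 (SE), with a 95% interval from -0.85 to 0.57. It was 0.13 when only parts overlapping the coding sequence were counted and -1.53 (unadjusted p 0.0920 in edgeR) with the longest part alone. Single libraries moved it as well, to -0.003 without delipidated library 3, -0.004 without control library 3 and -0.35 without delipidated library 1. Of its counts, 17.5% lay on parts that overlap E230016M11Rik on the opposite strand, and the share from each gene is uncertain.

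The kinases at the top of the pathway had the smallest unadjusted p of the 10 genes, and neither was called. Atm (ENSMUSG00000034218, chr9:53439149-53536740, minus strand) was read at 112, 156 and 195 CPM in control libraries and at 136, 143 and 101 CPM in delipidated libraries. The lowest value was a delipidated library and the highest a control, with the rest interleaved. The means were 154 ± 41.1 CPM and 127 ± 22.3 CPM (SD over 3 libraries, n = 3; permutation p = 0.4, exact and two-sided). The log2 fold change was -0.28 ± 0.26 (SE), with a 95% interval from -0.85 to 0.28. In edgeR its p was 0.296 before adjustment and 1.00 after Benjamini-Hochberg adjustment. The log2 fold change ran from -0.46 without control library 1 to -0.08 without control library 3. Counts of Atm were found on 57 to 71 of its 74 parts, and part 4 near the start held the most in each library.

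Atr (ENSMUSG00000032409, chr9:95857597-95951781, plus strand) was read at 34.3, 26.1 and 18.1 CPM in control libraries and at 8.34, 25.3 and 21.5 CPM in delipidated libraries. Delipidated library 1 was the lowest, and the other delipidated libraries lay inside the control range. The means were 26.2 ± 8.12 CPM and 18.4 ± 8.89 CPM (SD over 3 libraries, n = 3; permutation p = 0.4, exact and two-sided). Its log2 fold change was -0.51 ± 0.47 (SE), with a 95% interval from -1.55 to 0.52, and it ran from -0.82 without delipidated library 2 to -0.16 without delipidated library 1. Counts were found on 45, 39 and 24 of 75 parts in control and on 15, 31 and 28 in delipidated libraries. All counts of Atr lay on parts that the files list under joined gene identifiers and that were assigned to Atr because they overlap exons of no other gene of the join. Of these counts, 7.24% lay on parts that overlap 1700065D16Rik or Gm16794 on the opposite strand.

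Chek1 (ENSMUSG00000032113, chr9:36708482-36727065, minus strand), the kinase below ATR, was read at 225, 145 and 178 CPM in control libraries and at 170.4, 187 and 229.8 CPM in delipidated libraries. The lowest value was a control and the highest a delipidated library, with the rest interleaved. The means were 182 ± 40.3 CPM and 196 ± 30.6 CPM (SD over 3 libraries, n = 3; permutation p = 0.7, exact and two-sided). Its log2 fold change was 0.10 ± 0.23 (SE), with a 95% interval from -0.40 to 0.60. It was -0.04 without control library 2, -0.03 without delipidated library 3 and 1.16 with the longest part alone, which held 0 to 103 counts.

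Chek2 (ENSMUSG00000029521, chr5:110839979-110874145, plus strand), the kinase below ATM, was read at 51.0, 115 and 102 CPM in control libraries and at 130.2, 82.1 and 34.9 CPM in delipidated libraries. The delipidated libraries included both the highest and the lowest value, 3.73-fold apart. The means were 89.5 ± 34.1 CPM and 82.4 ± 47.6 CPM (SD over 3 libraries, n = 3; permutation p = 0.8, exact and two-sided). On the log2 scale the difference was -0.12 ± 0.44 (SE), with a 95% interval from -1.08 to 0.84. It ran from -0.61 without delipidated library 1 to 0.24 without delipidated library 3. Its coefficient of variation was 38.0% in control and 57.8% in delipidated libraries, against 22.1% and 15.6% for Chek1, a difference in spread that was not tested between the genes.

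Trp53bp1 (ENSMUSG00000043909, chr2:121193281-121271407, minus strand) encodes 53BP1, a mediator that gathers at double-strand breaks. It was read at 183, 229 and 289 CPM in control libraries and at 194, 220.3 and 212 CPM in delipidated libraries. All delipidated values lay inside the control range. The means were 233 ± 53 CPM and 209 ± 13.7 CPM (SD over 3 libraries, n = 3; permutation p = 0.6, exact and two-sided). On the log2 scale the difference was -0.16 ± 0.22 (SE), with a 95% interval from -0.64 to 0.31, and it was 0.02 without control library 3. As with Atm and Gadd45a, its highest value was in control library 3.

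Atm was the member with the smallest unadjusted p, and the genes most like it over the 6 libraries were sought by the root mean square difference of centred log2 CPM. Among 6146 genes of at least 20 CPM they were Nvl (0.0828), Cdt1 (0.0840) and Gpn3 (0.0952). Like Atm, each of these genes was lowest in delipidated library 3 and highest in control library 3. They were chosen for their likeness over these same libraries, so this is not a separate result.

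The other genes of the pathway were counted by list. Of 38 genes that p53 is known to induce, 33 were tested, 15 had a log2 fold change above and 18 below 0, 0 were called, 0 had an unadjusted p under 0.05, and the median was -0.01. The smallest p were those of Bax, a pore-forming protein of apoptosis, at 2.38 ± 0.848 CPM in control and 7.07 ± 6.26 CPM in delipidated embryos, and of Plk3, at 36.8 ± 20.6 and 21.5 ± 7.74 CPM. The high mean of Bax came from 1 library, since its delipidated values were 4.20, 14.3 and 2.75 CPM. Ei24 was the most abundant, at 305 ± 64.3 and 305 ± 61.0 CPM (SD, n = 3 each). Fas had 0 counts in all 6 libraries.

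Of 30 regulators of p53, 27 were tested, 11 were above and 16 below 0, 0 were called, 0 had an unadjusted p under 0.05, and the median was -0.11. Rpl11, a ribosomal protein that binds MDM2 and 1 of the 2 genes with the smallest p, was read at 115 ± 12.9 CPM in control and 85.8 ± 19.7 CPM in delipidated embryos (SD, n = 3 each), and its groups overlapped. Crebbp, an acetyltransferase of p53, was the most abundant, at 1172 ± 78.7 and 1195 ± 276 CPM.

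Of 45 genes of damage sensing and repair, 43 were tested, 24 were above and 19 below 0, and 0 were called. The median log2 fold change was 0.08, and 2 genes had an unadjusted p under 0.05, both higher in delipidated embryos (4.65% of the list, against 1.15% of all genes). Tipin, which with Timeless steadies the replication fork and helps ATR to activate CHK1, was read at 142, 124 and 112 CPM in control and at 162, 189 and 188 CPM in delipidated libraries. Hus1, a subunit of the 9-1-1 clamp that activates ATR, was read at 24.6, 39.5 and 30.3 CPM in control and at 49.6, 54.3 and 54.8 CPM in delipidated libraries. For both genes the delipidated libraries lay above all controls. The same held in this list for Brca2 (log2 fold change 0.21), while for Rpa2 (-0.52) and Rad17 (-0.37) they lay below all controls. Among all genes tested, 3.81% lay above and 5.05% below in this way. The log2 fold change was 0.51 ± 0.21 (SE) for Tipin and 0.75 ± 0.31 (SE) for Hus1, and edgeR's adjusted p was 1.00 for each after Benjamini-Hochberg adjustment, so neither was called. When single libraries were left out, the log2 fold change stayed between 0.43 and 0.62 for Tipin and between 0.61 and 0.95 for Hus1. In edgeR the unadjusted p of both remained under 0.05 without delipidated library 1 (0.0303 for Tipin and 0.0426 for Hus1). It exceeded 0.05 for both without control library 3 (0.108 and 0.0787), delipidated library 2 (0.0951 and 0.0764) or delipidated library 3 (0.065 and 0.0624). Without control library 1 it was 0.0279 and 0.101, and without control library 2 it was 0.0676 and 0.0184. It also exceeded 0.05 for Tipin with the replicate block (0.0592) and with parts in the coding sequence (0.0565), and for Hus1 with the longest part (0.282). Atr and Chek1, which act with them, had log2 fold changes of -0.51 and 0.10, and that of Timeless was -0.03. Rif1, a partner of 53BP1, was the most abundant of the list at 1600 ± 94.5 and 1562 ± 78.7 CPM.

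Of 31 checkpoint effectors, the cell cycle genes on which the pathway acts, 30 were tested, 17 were above and 13 below 0, 0 were called, 0 had an unadjusted p under 0.05, and the median was 0.04. The smallest p were those of Ccnd2, a D-type cyclin, at 22, 22 and 25 counts in control and 0, 0 and 5 counts in delipidated libraries, and of Cdkn1c, at 13.3 ± 7.88 and 25.8 ± 15.8 CPM. In this list too, groups did not overlap for some genes. The delipidated libraries lay below all controls for Ccnd2 (log2 fold change -3.81), and above all controls for Cdkn2c (1.07) and Ccnd3 (0.45). Among all genes tested, 3.81% lay above and 5.05% below in this way. Wee2, the oocyte form of the kinase that holds CDK1 inactive, was the most abundant at 768 ± 195 and 796 ± 151 CPM.

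The libraries carried the markers of their stage. Of 22 markers of oocytes and 2-cell embryos, 22 had counts in each library but delipidated library 1, which had 21. Their summed level was 1872, 1234 and 1796 CPM in control and 1354, 1651 and 2107 CPM in delipidated libraries, and Oosp1 was the most abundant. Of 16 markers of cumulus and granulosa cells, 10, 9 and 12 had counts in control and 5, 8 and 7 in delipidated libraries, at a summed 30.3, 50.6 and 139 CPM and 19.0, 43.1 and 22.1 CPM. Amhr2 had the highest mean of this list. The sum in control library 3 came mostly from Cyp11a1 (653 counts) and Hsd3b1 (607 counts), which had at most 5 counts in any other library. Foxl2 and Ptx3 had 0 counts everywhere, and Fshr, Inha, Inhba and Cyp11a1 had 0 in every delipidated library and in at least 1 control library. Of 12 leukocyte markers, 9, 7 and 9 had counts in control and 4, 6 and 9 in delipidated libraries, at a summed 21.6, 17.1 and 16.7 CPM and 9.97, 10.9 and 14 CPM, led by Coro1a. Lyz2 had 2, 8 and 8 counts in control and 0 in each delipidated library. Tyrobp had 5 counts in control library 1 alone, and Fcer1g 15 in delipidated library 3 alone.

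Of 15 markers of oviduct and stroma, 9, 12 and 10 had counts in control and 5, 6 and 10 in delipidated libraries. They summed to 143, 287 and 173 CPM in control and 236, 225 and 140 CPM in delipidated libraries, most of it Epcam, which embryos also express. Vim, an intermediate filament gene of stromal and other somatic cells, had 152, 145 and 300 counts in control and 0 counts in each delipidated library. A count of 0 allows up to 0.212 CPM there, by counting error alone. In edgeR its p was 4.5e-06 before and 0.0721 after Benjamini-Hochberg adjustment, the smallest adjusted p of all genes tested, and it was called by DESeq2 and by edgeR when genes of low count were kept. Col1a1 had 11, 26 and 42 counts in control and 0 in each delipidated library. Col3a1 (10, 8 and 0 counts in control), Krt19 (0, 3 and 84) and Lum (0, 0 and 2) had 0 in each delipidated library and also in at least 1 control library. Dcn had 0 counts in each control and 27 in delipidated library 3, which was also the only delipidated library with counts of Col1a2 (27, against 14, 48 and 15 in control), Pax8 (20, against 0, 23 and 0) and Acta2 (6, against 0, 4 and 0). Foxj1 had counts only in delipidated libraries 2 and 3 (9 and 2). Cumulus cells had been taken off with hyaluronidase before culture. Whether cells other than the embryo's own added to the counts of the 10 pathway genes in control libraries was not tested.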

How the data were processed

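Libraries were made from pools of 3 embryos with the SMARTer Stranded Total RNA-Seq Pico kit and depletion of ribosomal RNA. Per the submitters' processing notes, reads were handled with bcl2fastq 2.20, Trimmomatic 0.36, STAR 2.5.2b and featureCounts on mm10. The authors deposited raw counts for 425461 exonic parts in each library, without normalization. Reads that touch more than 1 part are counted in each, so sums exceed the number of reads and their counting precision is overstated. Genes cut into many short parts gain more from this, so places and ratios between genes are uncertain. The strand setting of the counting is not given in the sources used here.

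Parts were summed per Ensembl gene. Of 33309 parts under joined identifiers, the 27968 that overlap exons of 1 of the joined genes in GENCODE M21 (GRCm38) went to it, and the rest were left out, 2.49% to 2.57% of the counts of a library. The comparison used edgeR 4.0.16 under R 4.3.3 (filterByExpr with minimum count 10 and minimum total 15, TMM, quasi-likelihood test without covariates, Benjamini-Hochberg adjustment over all genes). Positive log2 fold changes mean higher in delipidated embryos, the SE is the log2 fold change divided by the root of the F statistic, and 95% intervals use the degrees of freedom of the test. CPM are scaled by TMM. DESeq2 1.42.0 and limma 3.58.1 were alternatives. Unique reads alone were counted, so genes with near-identical copies are uncertain.

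Named genes were the 10 members; from each pathway list those with an unadjusted edgeR p under 0.05, or otherwise the 2 with the smallest p, and the most abundant; from each marker list the most abundant and any with p under 0.05; and the 3 genes closest in profile to the member of smallest p. Some list genes at 0 counts in a library were also named with their values in view, and others were not. Also named in this way were genes that carried a list's sum in 1 library, repair genes and checkpoint effectors whose groups did not overlap, and Timeless. Genes without overlap were not all named in every list. For the p53 regulators, 1 gene that this rule names is not reported here. The members and lists were chosen with earlier results of these data known. Trp53rk of the p53 regulators and Shld3 of the repair list were not matched by symbol.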

Additional observations from a re-analysis of the deposited data

How the results depend on the processing

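Each of the 10 genes was refitted under 16 alternatives, and 157 values resulted; Atr had none from parts under a single identifier, and Atr and Trp53 had none from the longest part. Of these, 145 kept their direction, 12 turned, 0 were called and 0 had an unadjusted p under 0.05. Cdkn1a and Atr kept their direction under every alternative that gave a value. Without 1 library, log2 fold changes turned for Trp53 (-0.031 to 0.40), Mdm2 (-0.29 to 0.028), Mdm4 (-0.026 to 0.16), Chek1 (-0.039 to 0.29), Chek2 (-0.61 to 0.24) and Trp53bp1 (-0.30 to 0.016). With the longest part alone, Mdm2 turned to 0.017 and Atm to 0.19, and the places of Mdm2, Cdkn1a, Gadd45a, Chek1 and Trp53bp1 in the order of levels moved, while Mdm4 stayed first and Atr last. With parts in the coding sequence, an alternative chosen after seeing the data, Gadd45a turned to 0.13, and Atr had the lowest mean level but Cdkn1a was last in 3 libraries. Without turning, the longest part moved Gadd45a to -1.53, Chek1 to 1.16, Cdkn1a to -0.021, Trp53bp1 to -0.49, Chek2 to -0.46 and Mdm4 to 0.15. Coding parts moved Cdkn1a to -1.53 and Mdm4 to 0.034, also without turning. The cause was not tested beyond the library or parts left out. Over all genes, 0 were called higher and 0 lower under each alternative except where genes of low count were kept: 5 higher and 25 lower with edgeR, and 9 higher and 40 lower with DESeq2, none of them among the 10. With the replicate block, 0 genes were called; the numbers do not pair the samples, since libraries of the same number correlated at -0.0836, 0.0698 and 0.0428 in their deviations from the group means, and not every library correlated best with its own number. Cdkn1a had 21 to 183 counts in a library. With 3 libraries per group, small differences could not be resolved. The common biological coefficient of variation over all genes tested was 66.3%, but the spread differed between the 10 genes. The narrowest 95% interval was 0.860 to 1.28 times the control level, for Mdm4, and the widest 0.199 to 2.2 times, for Cdkn1a.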
